A study of Mus musculus with 4 samples.

Results

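The comparison set the open chromatin of cells given dexamethasone (Dex) directly against that of cells given estradiol (E2), with 1 DNase-seq library on each side. Its members were the 51251 hypersensitive regions of the Dex list and the 35496 of the E2 list, 86747 of the 202687 regions in the 4 lists of the series. They were taken from the list of each library, and regions of both lists were paired where they overlapped by at least 1 bp. The cells were of the 7438 line, mouse mammary cells in which the fusion proteins GFP-GR and Cherry-ER are made from a tetracycline-regulated promoter. Every group carried both fusion proteins: cells were plated 48 h before the experiment, and tetracycline was removed 24 h before hormone. The Dex cells then received 100 nM Dex for 30 min, the E2 cells 100 nM E2 for 30 min, the Dex+E2 cells both at 100 nM for 30 min, and the untreated cells no hormone. The Dex+E2 and untreated libraries, which had no part in choosing the regions, serve below as further readouts. The levels of the fusion receptors beside any receptor of the cells themselves, and whether the line is 1 clone, are details the sources used here do not give. With 1 library per group, all values describe these libraries, and no difference could be tested against a spread between replicates.

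The glucocorticoid receptor (GR), the target of Dex, waits in the cytoplasm without ligand and enters the nucleus when Dex binds. The estrogen receptor (ER), the target of E2, lies mainly in the nucleus already and gains affinity for its DNA sites and coactivators with E2. Both are nuclear receptors that bind short palindromic response elements and recruit enzymes that remodel nucleosomes, after which the nuclease DNase I cuts the local DNA more readily. Some receptor sites are open before hormone and others open only after it. Positions below are mm9 coordinates as the deposited lists give them. Nearby genes and the DNA sequence of the regions were not analysed here.

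The Dex list covered 31.7 Mb and the E2 list 19.7 Mb. Their median regions were of like width (536 and 538 bp) and like maximum tag density (7.84 and 7.40), the density being the authors' scaled count of tags at the summit of a region. The median summit held 32 tags in the Dex list and 37 in the E2 list. If all libraries were scaled to 1 common total, which is not stated, the E2 library was 1.22 times as deep as the Dex library. Strong regions, here those with a density of at least 20, numbered 7460 in the Dex list and 3651 in the E2 list.

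More regions stood in 1 list only than in both. Of the Dex regions, 28380 (55.4%, Wilson 95% interval 54.9 to 55.8) overlapped no E2 region, and of the E2 regions, 11736 (33.1%, 32.6 to 33.6) overlapped no Dex region. Such intervals reflect counting alone. The 2 lists merged into 62768 regions, of which 28370 were of the Dex list only, 11736 of the E2 list only and 22662 shared. With the Dex list cut to its 35496 densest regions, as many as the E2 list has, the counts without a counterpart were 14284 for Dex and 13341 for E2, so the imbalance was nearly gone. Lists of the same length give like counts by construction wherever regions pair 1 to 1, so this does not measure what length contributes. Absence from a list means only that the threshold set by the authors was not met in that library; such a site need not be closed.

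Most regions of 1 list were weak. The median density of the Dex-only regions was 6.12 (quartiles 4.90 and 7.59), against 13.7 for Dex regions with an E2 counterpart. E2-only regions had a median of 5.40 (4.60 and 6.40), against 9.40. The share of regions without a counterpart fell with density, from 90.4% of Dex regions under 5 to 3.29% of those at 30 or more. For E2 regions the same classes gave 74.8% and 0.433%.

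The Dex+E2 library shows how many of these regions were listed again in an independent library with the same hormone. Among Dex-only regions with a density under 5, 541 of 7118 (7.60%, 7.01 to 8.24) were in the Dex+E2 list. The share was 52.3% (50.8 to 53.7) at densities of 7.5 to 10 and 96.8% (94.7 to 98.1) at 15 to 20. E2-only regions followed the same course, with 610 of 4863 (12.5%, 11.6 to 13.5) under a density of 5, 68.6% (65.7 to 71.4) at 7.5 to 10 and 93.9% (83.5 to 97.9) at 15 to 20. Weak regions that both lists held were found again far more often: under a density of 5, 59.9% of Dex regions with an E2 counterpart and 73.1% of E2 regions with a Dex counterpart were in the Dex+E2 list. The classes at 20 or more were complete for Dex (341 of 341), and for E2 they held 15 of 18 regions at 20 to 30 and 7 of 7 above. A region of 1 list with a density under 7.5 was thus mostly not in the Dex+E2 list, whereas most of those above 7.5 were. The untreated list, without hormone, held 40.8% of all Dex-only regions, against 30.1% in the Dex+E2 list. For E2-only regions the shares were 26.5% and 27.6%. Among Dex-only regions at 7.5 to 10 they were 69.2% untreated and 52.3% with Dex+E2, but 68.1% and 96.8% at 15 to 20. Whether being listed again was due to the hormone was not tested.

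**Figure D1:**
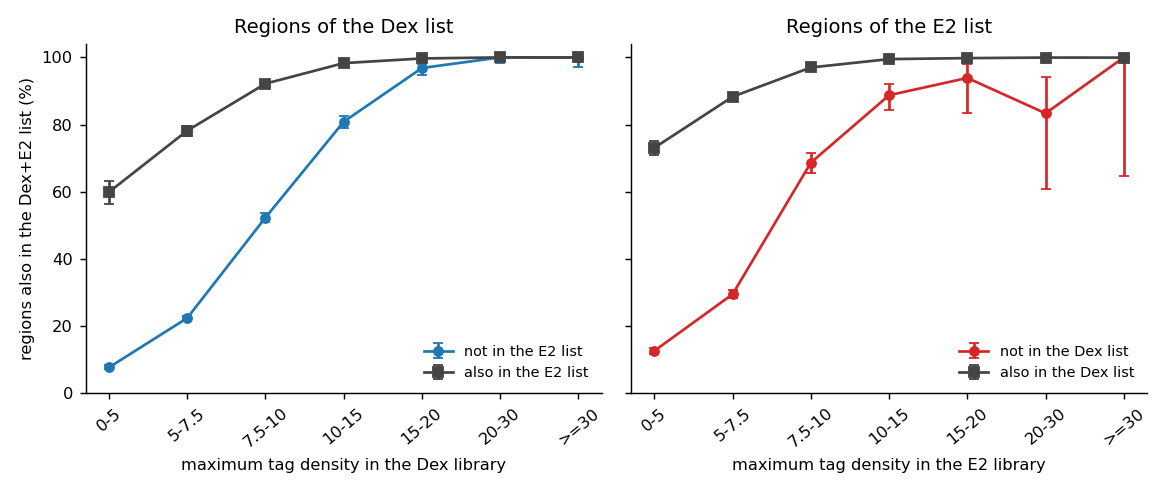
Share of regions also in the Dex+E2 list (y axis, percent) by class of maximum tag density in the region's own library (x axis), for the Dex list (left) and the E2 list (right). Circles are regions without a counterpart in the other single-hormone list, squares regions with one, and bars Wilson 95% intervals; circles rise from 7.60% to 100% for Dex, and from 12.5% to 93.9% for E2 before 83.3% and 100% in its last classes of 18 and 7 regions.

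Strong Dex-only regions numbered 341 of 7460 (4.57%, 4.12 to 5.07), and strong E2-only regions 25 of 3651 (0.685%, 0.464 to 1.01). The size of this gap depended on the scale of the densities. A density of 20 is 1.43 times the Dex median over shared regions but 2.08 times the E2 median. With the limit at the lower multiple in both libraries (20 for Dex, 13.8 for E2), there were 341 and 112 such regions, and with the higher multiple (29.1 and 20) there were 135 and 25. By count, Dex-only strong regions were the more numerous in each of these settings. Their share of all regions past the moved limits is not given here.

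All 341 strong Dex-only regions were in the Dex+E2 list (98.9 to 100%). So were 7118 of the 7119 strong Dex regions with an E2 counterpart, so this is not particular to the Dex-only ones. Densities were higher in the untreated library than in the single-hormone ones. The median over the shared regions found in all 4 lists was 30.4, against 14.7 for Dex and 10.2 for E2. Even so, in the untreated list 212 of the 341 (62.2%, 56.9 to 67.2) had a counterpart at a median density of only 12.2, and 129 had none. Strong Dex regions with an E2 counterpart were in the untreated list in 7103 of 7119 cases, at a median of 63.0. Untreated densities at the 212 ran from 4.08 to 112, so some of these sites were strong before hormone. Strong sites common to both hormones were nearly always listed there.

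The densest Dex region without an E2 counterpart was chr4:64255804-64256867. Its density was 123 after Dex (exact Poisson 95% interval for the tags at the summit, 113 to 135), 118 after Dex+E2 and 16.3 in untreated cells. The next, chr4:59348435-59349477, stood at 115 (105 to 126) with Dex and at 80.3 with Dex+E2, and the untreated list had no region there. Both sites were high after Dex and missing after E2 by selection. They were also high after Dex+E2, and low or missing in untreated cells.

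At chr6:5392182-5393873 the densities were 81.5 (73.0 to 90.8) after Dex, 44.5 after Dex+E2 and 30.4 untreated. At chr12:80453017-80454115 they were 79.3 (70.9 to 88.5) and 64.7, with no untreated region. At chr4:43362315-43363582 they were 69.8 (61.9 to 78.4), 38.3 and 22.2. The first and the last of these sites were thus already listed before hormone, at the lowest density of the 3 libraries that list them.

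The region chr2:152610975-152612305 had 68.6 (60.8 to 77.1) after Dex, 56.3 after Dex+E2 and 16.1 untreated. A pair of sites on chromosome 17 had the same Dex density of 63.9 (56.4 to 72.2). One, chr17:28652276-28653515, stood at 54.0 after Dex+E2 and 10.7 untreated, and the other, chr17:28649115-28650620, at 47.9 after Dex+E2 with no untreated region. The remaining 4 of the 12 densest lay between 57.1 and 63.7 after Dex. Across the 12, untreated densities ran from 10.7 to 30.4 at 8 sites and were not listed at 4, and every Dex+E2 density (38.3 to 118) was below the Dex one.

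The lower level with both hormones held for most strong Dex-only sites. The Dex+E2 density was lower than the Dex density at 309 of 341 sites, with a median of 20.2 against 26.4. Over the 21040 shared regions found in all 4 lists, Dex+E2 was instead slightly higher than Dex (medians 15.4 and 14.7). Relative to these medians 315 of the 341 sites were lower, with a median log2 ratio of -0.51. The sites were selected for a high Dex density, which by itself favours a lower value in any second library, and the part of that selection in the difference was not tested.

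E2-only sites fell into unlike sets. Of the 25 strong ones, 7 lay in 2 narrow stretches, 5 between chr8:19960809-20033218 and 2 within chr11:3022057-3039284, and 18 lay elsewhere. Those in the stretches had Z scores of 5.42 to 11.4 and widths of 256 to 560 bp, although their densities were 21.0 to 44.4. The Z score is the authors' measure of a region against the background of its own library. The 18 others had Z scores of 22.5 to 45.9, widths of 650 to 1117 bp and densities of 20.4 to 34.8. Among the 341 strong Dex-only sites, 1 had a Z score whose double was below its density, chr2:22507397-22507829 (density 55.8, Z score 8.24, and 53.1 after Dex+E2), and none lay in the stretches.

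All 18 strong E2-only sites outside the stretches were in the Dex+E2 list (82.4 to 100%), and 15 of them had an untreated counterpart, at a median density of 13.01. With the stretches included, 22 of 25 had a Dex+E2 counterpart and 18 an untreated one. Thus most strong E2-only sites, like most strong Dex-only ones, had a region before hormone, but less often than strong sites of both lists. Of the 3626 strong E2 regions with a Dex counterpart, 3618 were in the untreated list and 3624 in the Dex+E2 list.

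The densest E2-only site outside the stretches was chr8:13506477-13507415, with 34.8 (29.8 to 40.4) after E2, 62.6 after Dex+E2 and 13.01 untreated. At chr12:86970376-86971493 the densities were 33.4 (28.5 to 38.9) after E2, 41.7 after Dex+E2 and 24.2 untreated. The site chr2:181407878-181408800 reached 32.4 (27.6 to 37.8) and 33.6 from 7.65 untreated. Absence after Dex alone was a condition for naming these sites, and all 3 were in the untreated list.

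The untreated list also held chr11:117815215-117815907 (31.8 after E2, 47.9 after Dex+E2, 20.9 untreated). It held as well chr4:137344134-137345016, with 28.6, 39.5 and 6.38 in the same order, and chr11:115636972-115637805, with 27.8, 34.5 and 12.2. The last of the 7 named sites outside the stretches, chr11:48712288-48713286, had 27.0, 34.7 and 23.2. At all 7 the Dex+E2 density as deposited was above the E2 density, where at the 12 Dex-only sites it was below the Dex density. Relative to the library medians, which were 10.2 for E2 and 15.4 for Dex+E2, 6 of the 7 were lower in Dex+E2. The opposite directions as deposited are therefore not shown to be a difference between the hormones.

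**Figure D2:**
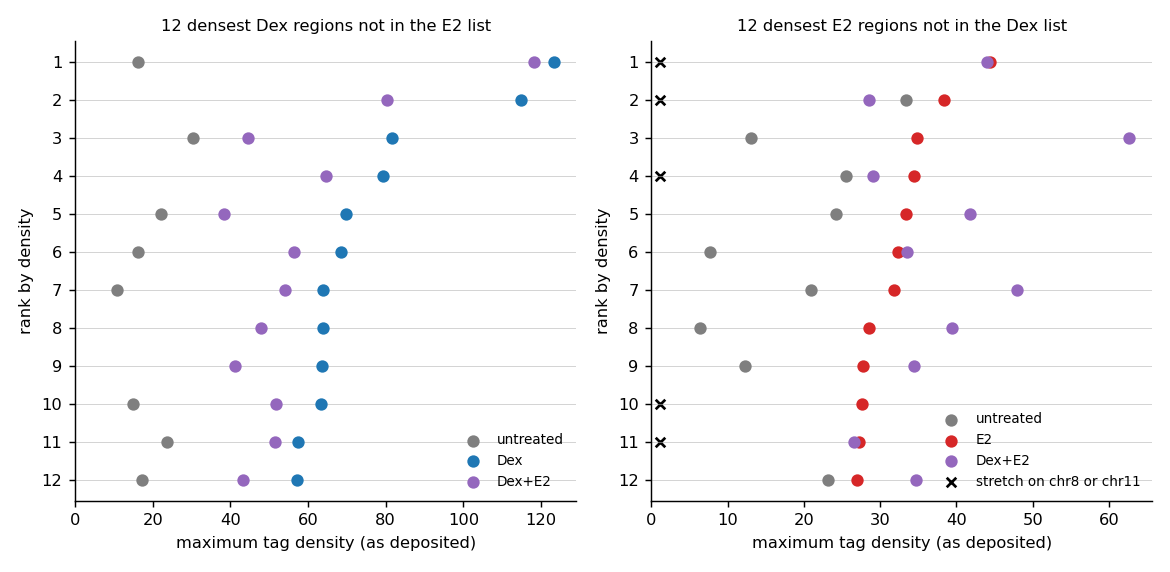
Maximum tag density as deposited (x axis) of the 12 densest regions listed after Dex and not after E2 (left) and after E2 and not after Dex (right), ranked by density (y axis), in each library that lists them. Dex sites sit between 57.1 and 123 in the Dex library with every Dex+E2 point to the left; crosses mark 5 E2 sites in the stretches on chromosomes 8 and 11.

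The 22662 shared regions were denser after Dex than after E2 as deposited. The median density was 14.0 after Dex and 9.60 after E2, a ratio of 1.45, and 83.8% of regions were higher after Dex. The median of the log2 ratio was 0.45 (quartiles 0.14 and 0.78). The average density over a region shifted less, from 2.56 after E2 to 3.21 after Dex, a ratio of 1.26, with a median log2 ratio of 0.29 and 73.4% of regions higher after Dex. Whether this shift of all shared regions reflects the hormones or the scaling of the libraries cannot be told apart here, so single regions are compared below relative to the median of each library over the shared regions.

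On that relative scale the middle of the distribution was narrow, with quartiles of -0.40 and 0.24 on the log2 scale. At least 2-fold higher in Dex were 689 regions (3.04% of the 22662), and 661 (2.92%) were at least 2-fold higher in E2. As deposited, the counts were 3135 and 108. Counts of 2-fold regions in each direction thus rest on the division by the medians. At 4-fold there were 56 regions higher in Dex and 24 higher in E2.

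The Dex-higher and E2-higher regions differed in strength. Of the 689, 602 were strong in the Dex library, with a median of 34.04 after Dex and 8.60 after E2. Of the 661, 166 reached 20 in the E2 library, and the medians were 14.0 after E2 and 8.08 after Dex. When shared regions were ordered by the geometric mean of both densities and divided into 10 classes of like size, the lowest class held 2 Dex-higher and 65 E2-higher regions, and the highest class 94 and 18. The median relative log2 ratio itself went from -0.39 in the lowest class to 0.03 in the highest. With the median of each class taken off instead of 1 median for all, 757 and 504 regions passed 2-fold.

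The tags at the summits bound how well these ratios are known. For all 689 Dex-higher regions and for 654 of the 661 E2-higher ones, the exact 95% interval of the tag ratio lay on 1 side of equality. The interval lay wholly past 1.5-fold at 525 and 349. The same tags chose these regions, so intervals off equality largely follow from that choice. Among the 21312 shared regions short of 2-fold either way, 4359 had an interval on 1 side of equality and 49 had one past 1.5-fold. By the average density, 533 of the 689 and 378 of the 661 were also 2-fold higher in the same library, and all of them pointed the same way. Just inside the Dex limit lay chr10:5151161-5152101 (14.0 after Dex, 4.80 after E2) and just outside it chr9:30935223-30935942 (23.3 and 7.999). The corresponding regions at the E2 limit were chr4:134316479-134317288 (14.0 after Dex, 19.2 after E2) and chr8:124093939-124094890 (38.0 and 52.2).

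**Figure D3:**
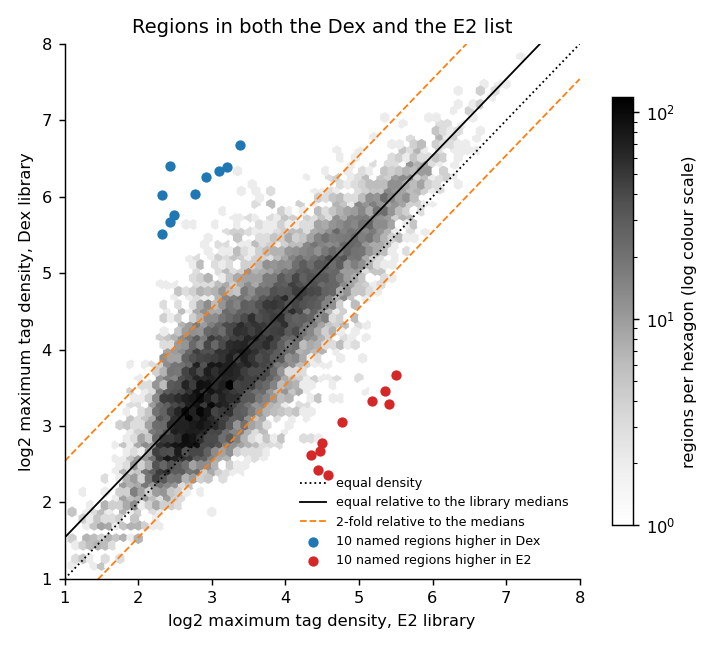
Maximum tag density of the 22662 regions in both lists, E2 library on the x axis and Dex library on the y axis, both as log2; shading gives regions per hexagon on a log colour scale, and 14 regions above a density of 256 lie outside the axes. Most regions lie above the dotted line of equal density, around the solid line of the library medians; dashed lines mark 2-fold, and coloured points are the 10 named regions on each side.

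Named shared regions were those with the largest ratios among regions that were strong in the higher library. These ratios chose the regions and are a description. Chromosome 18 held the most Dex-selective ones. At chr18:9491174-9494839 the density was 84.5 after Dex and 5.40 after E2, 10.8-fold relative to the medians (7.27 to 16.6 from the tags). Its neighbour chr18:9489218-9491064 had 65.1 and 5.00 (8.96-fold, 5.94 to 14.1). Untreated cells had 6.12 at the former and no region at the latter, and Dex+E2 gave 51.0 and 46.7.

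Further Dex-higher regions differed in how open they were before hormone. At chr19:44299949-44301017 the density was 102 with Dex, 10.4 with E2, 89.8 with both hormones and 28.1 untreated. At chr3:21908680-21909643 it was 80.8 with Dex, 8.60 with E2, 73.5 with both hormones and 23.97 untreated. At chr7:117926276-117927217 it was 83.5, 9.20, 85.3 and 8.42 in the same order, and so nearly the same as deposited in both libraries without Dex. The medians over regions in all 4 lists were 10.2 for E2 and 30.4 untreated. Relative to them this site was lower untreated than after E2.

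Not every site held its level in the second Dex library. Also on chromosome 7, chr7:117849638-117852231 had 76.6 with Dex, 7.60 with E2, 42.9 with both hormones and 36.0 untreated. At chr3:37070022-37070937 the values in this order were 50.7, 5.40, 19.7 and 6.89. The 10 named regions spanned 6.24-fold to 10.8-fold, with Dex densities of 45.8 to 102, and E2 densities of 5.00 to 10.4 around the median of the E2 list (7.40).

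E2-higher regions were weaker at their summits. The largest ratio was at chr13:3477020-3477738, with 23.997 after E2 and 5.14 after Dex (6.79-fold, 4.24 to 11.4), 13.3 untreated and 31.8 after Dex+E2. At chr3:136102770-136103636 the density was 42.6 after E2, 9.80 after Dex, 21.2 untreated and 48.3 after Dex+E2 (6.32-fold, 4.49 to 9.10). Both sites were higher in the libraries with E2 than in those without it.

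A site on chromosome 9 differed in its untreated level. There, chr9:35143294-35144080 had 21.8 after E2 and 5.39 after Dex (5.88-fold, 3.70 to 9.77), but 42.6 untreated and 21.3 after Dex+E2. As deposited it was highest without hormone, whereas relative to the library medians it was highest after E2, and on both scales it was lowest after Dex. Its Dex+E2 density was 0.985 of the untreated one relative to the medians. It was the only one of the 10 named E2-higher regions whose Dex+E2 density was not above untreated on this scale.

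Among the 10 named E2-higher regions, the 3 with the highest co-treatment densities were on chromosomes 12 and 15. At chr12:25408067-25409485 the densities were 45.2 after E2, 12.7 after Dex, 18.9 untreated and 86.4 after Dex+E2. At chr12:16797065-16797784 they were 36.2, 10.0, 9.44 and 66.2, and at chr15:77970307-77971127 they were 41.0, 11.02, 22.2 and 59.7. Across the 10 named regions the ratio of E2 to Dex ran from 4.79-fold to 6.79-fold.

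The 5 densest shared regions stood far above all these. At chr13:85266252-85267336 the density was 7501 after Dex and 3270 after E2, and the other 4, on chromosomes 2, 4 and 12, had 2522 to 5073 after Dex and 1336 to 2404 after E2. Relative to the medians they were 1.29-fold to 1.81-fold higher in Dex, short of the 2-fold limit. Their untreated densities were 5225 to 15878. In 4 of the 5 the double of a Z score was below the density, as in the stretches, and their Dex+E2 to untreated ratios were 0.423 to 0.580 relative to the medians.

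The ratio of Dex+E2 to untreated uses neither the Dex nor the E2 library, so it is a readout that did not choose the regions. Over the 21040 shared regions that are in all 4 lists, 1555 (7.39%) were at least 2-fold higher in Dex+E2 than untreated, relative to the library medians. Among the Dex-higher regions of this kind it was 230 of 679 (33.9%), and among the E2-higher ones 228 of 620 (36.8%). Regions between both limits reached this in 5.56%. The median log2 ratio was 0.66 for the Dex-higher, 0.70 for the E2-higher and -0.01 for the regions between.

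Larger ratios between the single hormones went with larger ones in this contrast. Among the regions 4-fold higher in Dex, 42 of 54 (77.8%) were 2-fold higher in Dex+E2 than untreated, with a median log2 ratio of 1.798. For those 4-fold higher in E2 it was 21 of 24 (87.5%), with a median of 1.95. The gap to the other regions was as wide among strong regions alone: of those between both limits 3.28% passed, against 35.4% of the strong Dex-higher and 45.1% of the strong E2-higher regions. As deposited, without the medians, the median log2 ratios were -0.32 for Dex-higher, -0.27 for E2-higher and -0.98 for the regions between, so the sign depends on the scaling while the order of the classes does not.

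On the relative scale, the untreated library lay on the side of the hormone that was lower. Relative to the library medians, the untreated density of Dex-higher regions was nearer to the E2 than to the Dex density at 538 of 679 regions (79.2%). At the E2-higher regions it was nearer to the Dex density at 457 of 620 (73.7%). For regions between both limits the untreated density was nearer to Dex in 53.9%. In units of the library medians, the Dex-higher regions had 2.32 with Dex, 0.843 with E2, 1.74 with both hormones and 1.07 untreated, and the E2-higher ones 0.583, 1.41, 1.12 and 0.672. On this scale most selective regions thus differed from untreated mainly in the library where they were high. As deposited, the medians of the 679 Dex-higher regions were 34.04 after Dex, 8.60 after E2 and 32.4 untreated. Those of the 620 E2-higher regions were 14.4 after E2, 8.57 after Dex and 20.4 untreated. There the untreated median was nearer to the hormone that was higher, so the pattern rests on the division by the medians. The Dex and E2 values chose these regions, and part of the pattern on the relative scale comes with that choice.

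The Dex-selective sites were not spread evenly along the chromosomes. Dex-selective sites here are the 341 strong Dex-only regions together with the 602 strong Dex-higher shared ones, 943 in all, and the E2-selective sites are the 25 and 166, 191 in all. Another Dex-selective site lay within 50 kb of 202 of the 943 (21.4%, 18.9 to 24.2), measured between centres, and within 50 kb of 819 of the 6516 other strong Dex regions (12.6%, 11.8 to 13.4). For the E2-selective sites the shares were 11.5% (22 of 191) and 5.15% of 3458 other strong E2 regions. Without the stretches on chromosomes 8 and 11 the former was 13 of 182 (7.14%, 4.22 to 11.8). This interval takes in the 5.15%, so closer spacing of E2-selective sites is not shown outside the stretches. Neighbouring sites share their surroundings, and the intervals treat them as independent.

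Chained at 50 kb, the Dex-selective sites formed 823 groups, of which 741 were lone sites and 11 held 4 or more. The largest was on chromosome 18, where 6 sites lay within 24.6 kb (chr18:9485239-9509861). Their Dex densities were 63.7, 65.1, 84.5, 36.0, 35.8 and 34.8 from left to right, and their Dex+E2 densities 41.1, 46.7, 51.0, 26.1, 22.7 and 29.3. The untreated list had only the third and the fourth (6.12 and 7.91), and the E2 list the second to the fourth, at 5.00 to 7.20. The selection fixed Dex above E2 at all 6. The Dex+E2 densities, which did not choose the sites, were far above the untreated ones at the third and the fourth. At the others the untreated list had no region.

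On chromosome 17, 5 sites lay within 99.8 kb (chr17:28556555-28656323). From left to right they had 29.1, 58.8, 63.9, 63.9 and 22.8 after Dex and 23.8, 37.2, 47.9, 54.0 and 8.62 after Dex+E2. Only the second was listed after E2 (10.999), and it was also the one most open before hormone (37.5 untreated, against 6.63 to 10.7 at 3 others and no region at the third). A group of 4 on chromosome 2 (chr2:152608205-152647027) joined a site open in every library (117 with Dex, 32.0 with E2, 106 with both hormones and 88.0 untreated) to another, chr2:152645642-152647027, with 57.8, 8.40, 57.9 and 14.3. The remaining large groups had Dex densities from 20.8 to 175. The only group of 4 or more E2-selective sites held 7 sites, chr8:19929528-20033218, which take in the chromosome 8 stretch.

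Neighbours of opposite selectivity were counted in the same way. An E2-selective site lay within 50 kb of 20 of the 943 Dex-selective sites (2.12%, 1.38 to 3.25) and of 4.34% (3.87 to 4.87) of the other strong Dex regions. Seen from the E2-selective sites, 22 of 191 (11.5%, 7.73 to 16.8) had a Dex-selective site this near, close to the 13.2% (12.1 to 14.3) of the other strong E2 regions. The lower share seen from the Dex side thus had no clear counterpart from the E2 side. This made 24 opposite pairs, none of them in the stretches.

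The closest opposite pair was on chromosome 12, with 1.81 kb between centres. The Dex site, chr12:16794819-16796404, had 10.2 untreated, 28.9 after Dex and 25.6 with both hormones, and E2 alone gave no region there. Its neighbour chr12:16797065-16797784, the E2-higher region named above, had 9.44 untreated, 10.0 with Dex, 36.2 with E2 and 66.2 with both. Each site was high in the library of its own hormone by selection, and it was also high in the Dex+E2 library. The next pairs were on chromosome 11 (chr11:5748634-5750046 and chr11:5755311-5756550, 6.59 kb apart) and chromosome 4 (chr4:57741053-57741865 and chr4:57748168-57748939, 7.09 kb apart). In the latter the Dex site was listed at 22.3 after Dex and 16.1 after Dex+E2 only, and the E2 site had 16.9 with Dex, 32.0 with E2, 51.5 with both hormones and 64.3 untreated.

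**Figure D4:**
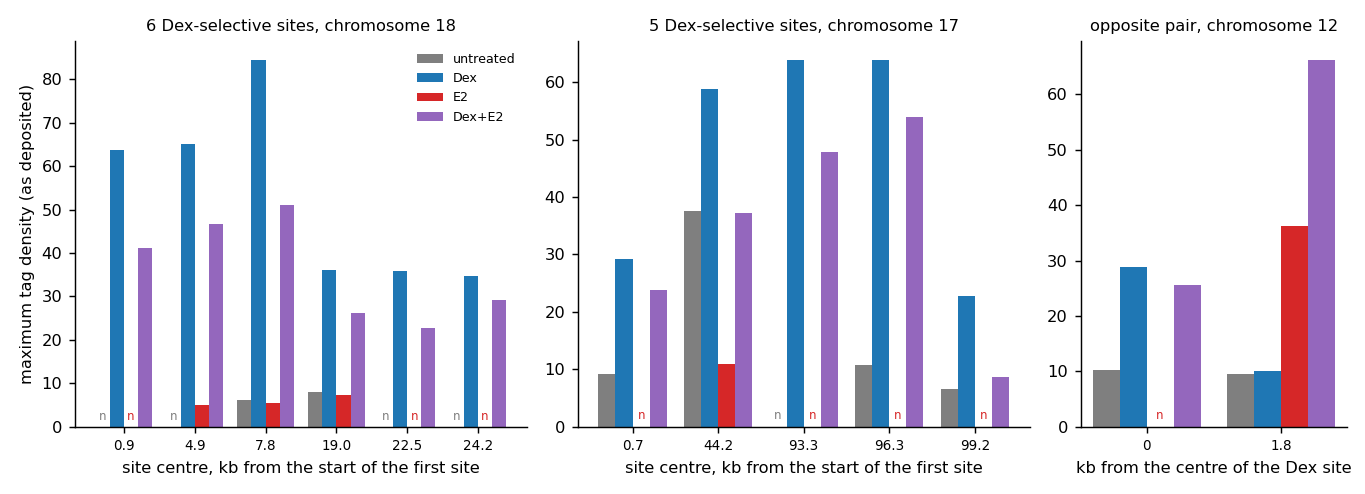
Maximum tag density as deposited (y axis) in the 4 libraries at the 6 Dex-selective sites of the chromosome 18 group, the 5 of the chromosome 17 group, and the opposite pair on chromosome 12 (x axes, distance in kb along the chromosome, sites evenly spaced); n marks a library that lists no region there. Dex and Dex+E2 bars exceed the E2 bar at the 4 grouped sites listed after E2, and the other 7 have no E2 bar, and the pair shows 28.9 after Dex at the left site and 36.2 after E2 at the right one.

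Chromosomes differed in their share of selective sites. Among strong Dex regions, the share that was Dex-selective ran from 8.73% on chromosome 11 (59 of 676) to 18.8% on chromosome 18 (30 of 160). Among strong E2 regions, the E2-selective share ran from 1.65% on chromosome 19 (2 of 121) to 6.88% on chromosome 4 (15 of 218). On chromosome 18 it was 3.08% (2 of 65). Over all chromosomes, 943 of 7460 strong Dex regions were Dex-selective and 191 of 3651 strong E2 regions E2-selective. Such small E2 counts do not establish an order of the chromosomes. Of the 30 Dex-selective sites on chromosome 18, 6 were the group described above. The median relative log2 ratio over all shared regions differed little between chromosomes, from -0.15 on chromosome 12 to -0.03 on chromosome X.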

How the data were processed

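DNase-seq lists from 4 libraries of 7438 cells were used, 1 per group. Each list gives, per the file headers, maximum and average tag densities, which are signal values that the authors scaled per library by a total that is not stated, and a Z score and p-value per region, which the authors deposited and which were not compared between libraries. Per the submitters' processing notes the build is mm9 and CASAVA 1.8 was used; the sources used here do not give the aligner or region caller. Maximum densities were whole multiples of a step within 0.02 tags (100% in each list; 0.245 for Dex, 0.200 for E2), read as 1 tag. Whether positions count from 0 or 1 is not stated.

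Regions overlapping by at least 1 bp were merged, and a merged region took its highest value in each library. Ratios were divided by the ratio of library medians over the shared regions, or over the 21040 regions in all 4 lists for ratios with the other libraries. All intervals (Wilson, exact Poisson, Clopper-Pearson) have a 95% level, cover counting error alone and take each tag for a separate molecule. Named regions are the 12 densest of each list without overlap in the other, the 10 shared regions with the most extreme ratios in each direction at a density of at least 20, the 5 densest, those at the 2-fold limit, and others (groups within 50 kb, opposite pairs) chosen after their values were seen. Members, limits and stretches were chosen with earlier results of these data known. The planned search for sequence words and nearby genes was not made, since no genome or annotation of this build was used here. Functions were tested on simulated data. The tools were SciPy 1.17.1, pandas 2.3.3, NumPy 2.4.6 and Matplotlib 3.10.9 under Python 3.11.15.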

Additional observations from a re-analysis of the deposited data

How the results depend on the processing

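No paired analysis was possible because each group has 1 library and no test was made. Dex-only and E2-only regions numbered 28380 and 11736. With lists of equal length the counts were 14284 and 13341, and in the denser 50% of each list 6777 and 1459 regions remained. A 50% reciprocal overlap, joining within 150 bp, leaving out chromosome X, and leaving out the stretches with regions of low Z score (added after seeing the data) kept both counts within 1.5 times. The median log2 ratio of Dex to E2 was 0.45 by maximum density, 0.29 by average density, 0.44 for regions paired 1 to 1, 0.48 for those in all 4 lists and 0.58 for the denser 50%. The 689 Dex-higher and 661 E2-higher regions became 3135 and 108 as deposited, 2165 and 3171 at 1.5-fold and 56 and 24 at 4-fold, and the denser 50% of shared regions held 353 E2-higher ones. Limits at equal multiples of the medians, added after seeing the data, gave 135 strong Dex-only or 112 strong E2-only regions. The share of strong Dex-only sites in the untreated list was 72% for the 25 densest, and that in the Dex+E2 list 98.3% at a density of at least 15. For strong E2-only sites the latter was 100% at a density of at least 30 and also 100% without the stretches, from 88% with them. The median log2 ratio of Dex+E2 to untreated turned from 0.66 to -0.32 (Dex-higher) and from 0.70 to -0.27 (E2-higher) as deposited, because the medians were no longer taken off, and was 0.56 and 0.58 by average density. The causes of the other changes were not tested. Depth limits the weak sites: the median E2-higher region had 33 tags at its Dex summit.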

Other observations

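Background-type regions, whose deposited density in all 3 hormone libraries was at least 0.8 of the untreated one, numbered 886 of the 22662 shared regions. This definition was made after the data were examined. It sets a lower limit on the ratio of Dex+E2 to untreated, so such regions tend to be high in that readout. Their part in the Dex+E2 to untreated results of either class was not computed. They made up 15 of the 689 Dex-higher and 78 of the 661 E2-higher regions. Without them and with the medians taken over the others, 674 and 583 regions were at least 2-fold higher.

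Strong Dex-only sites had a median width of 921 bp, and the 18 strong E2-only sites outside the stretches 858 bp. Strong Dex regions with an E2 counterpart had 1056 bp, and strong E2 regions with a Dex counterpart 830 bp.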
